A study of Drosophila melanogaster with 9 samples.

Results

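Transcript levels in heads of Drosophila melanogaster were compared between late day and late night. The comparison used 4 of the 9 arrays of the series, chosen by their labelled times. Late day was 1 array at ZT7 and 1 at ZT11, and late night was 1 array at ZT19 and 1 at ZT23, with zeitgeber time (ZT) given as the hours elapsed since the lights came on. All 4 arrays came from heads of the strain named 5073, extracted with Trizol and labelled with biotin for Affymetrix arrays. The labels give no genotype beyond that name, and no sex, age, number of flies or light schedule, so day and night rest on the usual meaning of ZT. Each array of a group was taken at its own time, 4 h from the other, so the spread within a group holds both array error and any change between those times.

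In the fly clock the proteins CLK and CYC switch on per and tim, whose proteins return to the nucleus at night and block CLK and CYC. A second loop through vri and Pdp1 sets the level of Clk. Many output genes of the fly head peak near the end of the day or the end of the night, and they include genes of neurons, photoreceptors, fat body and detoxification. A transcript that peaks late in the day or late in the night differs between the groups compared here, while one that peaks in the morning or early in the night differs mainly within them.

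The heads carried the transcripts of head tissue on all 4 arrays. All levels are on the log2 scale of GCRMA, a normalization that corrects background with probe sequence, on which a step of 1 is 2-fold. Phototransduction genes had median levels of 12.16 at ZT7, 12.03 at ZT11, 11.96 at ZT19 and 12.21 at ZT23, and all 18 measured reached 5 on all 4 arrays. Glial genes had medians of 10.79 to 10.91. The arrays also carried transcripts of tissue that lies outside the head. Of 31 sperm and seminal fluid genes measured, 30 reached 5 on all 4 arrays, with medians of 10.61, 11.47, 11.36 and 10.57 at ZT7, ZT11, ZT19 and ZT23. Of 30 digestive enzymes 25 did, with medians of 8.26, 9.14, 8.90 and 8.85. Ovary genes, mostly egg shell proteins, had medians of 3.67 to 3.69, and 1 of 15 reached 5 on all 4 arrays. Day and night did not divide in these lists: the sperm and seminal fluid genes were lower at ZT7 than at ZT19 (median difference -0.73) and higher at ZT11 than at ZT23 (0.50). In whole heads, fewer cells of a type and less RNA per cell cannot be told apart.

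The ZT19 array stood apart from the other 3. It lay at least 2-fold below each of them in 234 of 11651 probe sets tested, where the ZT7 array did so in 62, the ZT23 array in 11 and the ZT11 array in 7. Probe sets of a single gene split there. PCB, which encodes pyruvate carboxylase, had levels of 11.25, 11.37 and 10.45 at ZT7, ZT11 and ZT23 and 5.93 at ZT19 in one probe set, while the other held 13.54 at ZT19 and 13.55 to 13.58 elsewhere. Control probe sets for the 3′ and 5′ ends of a transcript also differed most there. For eIF-4a the 3′ probe set exceeded the 5′ one by 2.30 at ZT19 and by 1.38 to 1.47 on the other arrays, and for Actin by 1.24 against 0.69 to 0.76. The ZT19 array had the largest 3′ excess of the 4 in all 5 pairs of such control probe sets. The probe set for the 3′ part of 18S rRNA read 10.47, 9.55, 5.90 and 8.24 at ZT7, ZT11, ZT19 and ZT23, so both day arrays lay above both night arrays. The part of RNA quality in the results below was not tested, and values without the ZT19 array are given beside several of them.

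**Figure D1:**
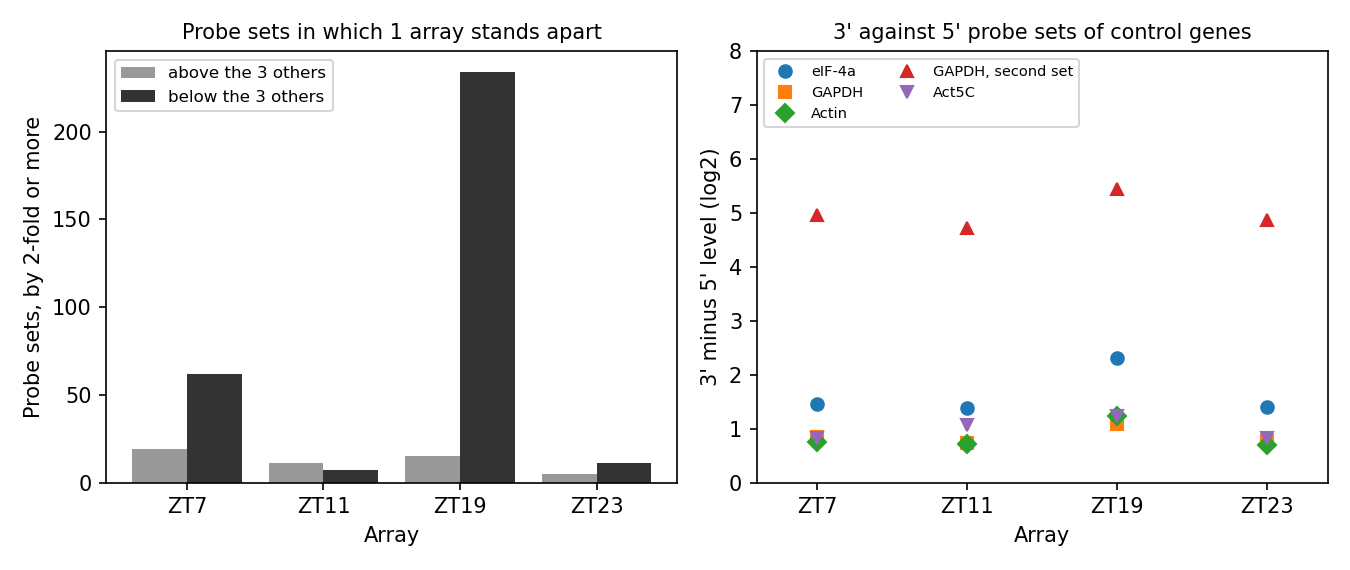
Left, the number of probe sets (of those tested) in which 1 array lay at least 2-fold above or below each of the other 3. Right, the level of the 3′ probe set minus that of the 5′ probe set for 5 pairs of control probe sets, in log2 units, with 1 point per array. The ZT19 array had 234 probe sets below the others and the highest point in each of the 5 pairs.

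No probe set passed the test between late day and late night. Of 11651 probe sets tested (9381 genes), 0 (0%) had an adjusted p under 0.05 in limma, and the smallest adjusted p was 0.172. The limma method fits each probe set by itself and moves its variance toward a value common to all probe sets. An unadjusted p under 0.05 was reached by 914 (7.84%), of which 511 (4.39%) were higher in late day and 403 (3.46%) higher in late night; 5% of the probe sets tested is 583. With 2 arrays against 2, an exact permutation test of a single gene cannot go below p = 0.333. Leaving out the ZT23 array, which sets ZT7 and ZT11 against ZT19 alone, gave 10 calls, all higher in late day. Among them were PCB and the prom and B52 probe sets that were low at ZT19; leaving out any of the other 3 arrays gave 0. The genes below are therefore described by their values in the 4 arrays, and none is called changed.

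A second description was made without a test. A probe set was counted as set apart when both day arrays lay on one side of both night arrays and the nearest arrays of the groups were at least 2-fold apart. This held for 35 probe sets, 25 higher in late day (0.215% of those tested) and 10 higher in late night (0.0858%). Of the 35, 28 named a single gene each, 18 higher in late day and 10 higher in late night. In 7 of the 35, one group lay under 5 on both of its arrays, near the background of the arrays, so the fold there is poorly measured. With 1 array left out the count was 67 without ZT7, 146 without ZT11, 65 without ZT19 and 411 without ZT23. Each of these settings leaves a group of 1 array, which is easier to set apart. The 411 came with ZT19 as the sole night array, and the cause of the spread in these counts was not tested. Genes with the smallest p in each direction were named by rule; IA-2, CG8736, CG7203, CG9377, tutl, Sarm, CG31462, CG6839, AANATL3 and TpnC4 are named because they were set apart, after their values were seen. Also picked with their values in view were obst-B, Cpr49Ae, Gasp, Cpr60D, AttD, CecB, PGRP-SC2, Obp83cd, sxe2, Slob, Shaw, qvr, unc-13 and Syn.

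**Figure D2:**
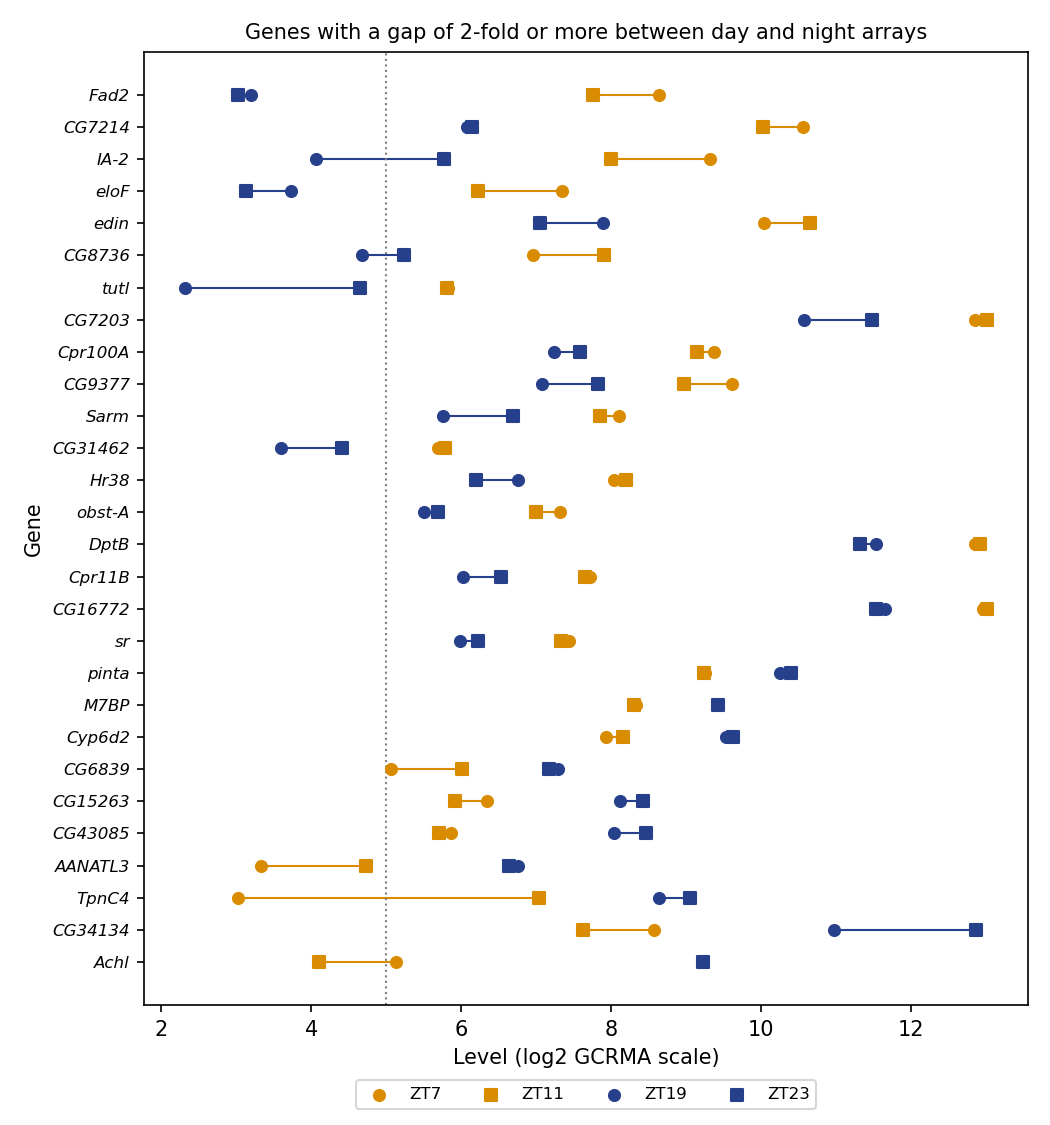
Levels on the log2 GCRMA scale (x axis) of the 28 named genes that were set apart by 2-fold or more, ordered by the difference between the groups. Circles and squares are the earlier and later array of each group, orange is late day (ZT7, ZT11), blue is late night (ZT19, ZT23), the line joins the 2 arrays of a group, and the dotted line marks the filter at 5. Fad2 and CG7214 head the genes higher in late day, and Achl and CG34134 lie at the other end.

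The probe sets with the largest differences toward late day included genes of the cuticle and of cuticular lipids. CG7214 had levels of 10.56 at ZT7 and 10.02 at ZT11, and of 6.08 at ZT19 and 6.14 at ZT23. The groups were separated by 3.88 at their nearest arrays, and the difference of 4.18 (SE 0.22) is 18.1-fold; its adjusted p in limma was 0.172. CG7203, which lies near CG7214 on chromosome arm 2L with ATPsynGL between them (RefSeq, assembly Release 6), read 12.86, 13.02, 10.57 and 11.48 at ZT7, ZT11, ZT19 and ZT23. It was thus also higher on both day arrays, by 1.92 (SE 0.34), while ATPsynGL differed by -0.19. These were the sole pair of set-apart genes within 3 places of each other on a chromosome.

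The enzyme genes Fad2 and eloF, of cuticular hydrocarbon synthesis, lay near background on the night arrays. Fad2, which encodes a fatty acid desaturase that makes the diene pheromones of females, read 8.63 at ZT7 and 7.75 at ZT11 against 3.20 at ZT19 and 3.02 at ZT23. eloF, which encodes an elongase that lengthens these chains and is also known for expression in females, read 7.34, 6.23, 3.73 and 3.13. Both night arrays lay under 5 for both genes, so the fitted differences of 5.09 (SE 0.33, adjusted p = 0.287 in limma) and 3.36 (SE 0.45, adjusted p = 0.624) rest on a low level near background. Most other transcripts known to differ between the sexes had overlapping groups, and none examined differed as much. The yolk protein gene Yp1, made in females, read 15.72, 15.72, 15.56 and 15.74, and the female-biased fat body gene fit read 13.02, 13.15, 12.85 and 13.19. The highest value on the 4 arrays was 15.74, so Yp1 lay at the top of their range, where a difference may be missed. The male-biased P450 gene Cyp4d21 read 11.75, 11.90, 12.11 and 11.82, and msl-2, the male dosage compensation gene, read 8.26, 8.32, 8.54 and 8.1. In each of these 4 genes the day arrays overlapped the night arrays. The groups did not overlap for sxe2, a male-biased gene, which read 12.36, 11.92, 11.54 and 11.51, for Obp99a, a female-biased gene, which read 10.59, 10.91, 11.27 and 11.36, or, narrowly, for Yp3, which read 15.41, 15.50, 15.20 and 15.40. Of these 3, sxe2 and Yp3 were higher in late day and Obp99a in late night. The Desat1 desaturase, active in both sexes, read 14.29, 14.29, 14.18 and 14.08. These sex-biased genes were chosen after the values of Fad2 and eloF were seen. The labels give no sex, and the part of the sex of the flies in the Fad2 and eloF values was not tested.

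Cuticle and chitin genes as a list were higher in late day more often than lower. Of 124 members measured, 45 passed the filter on low values; 12 had an unadjusted p under 0.05 with higher values in late day, against a background of 4.39%, and 2 with higher values in late night, against 3.46%. The median difference was 0.23, where that of all probe sets tested was -0.02. Cpr100A, a chitin-binding cuticle protein gene, read 9.38 and 9.14 in late day and 7.23 and 7.58 in late night (difference 1.85, SE 0.18, adjusted p = 0.442 in limma). obst-A, which encodes a chitin-binding protein that organises the cuticle matrix, read 7.32, 7.0, 5.51 and 5.70 at ZT7, ZT11, ZT19 and ZT23 (1.56, SE 0.17), and Cpr11B read 7.72, 7.65, 6.02 and 6.53 (1.41, SE 0.21). In all 3 genes both day arrays lay above both night arrays by at least 2-fold. The chitin deacetylase gene serp (1.15, SE 0.19), obst-B (0.84, SE 0.14), Cpr49Ae (1.41, SE 0.30) and Gasp (1.09, SE 0.29) also had groups that did not overlap. ZT19 was the lowest of the 4 arrays for Cpr49Ae, at 8.79 against 9.57 at ZT23, and for Gasp, at 8.72 against 9.36. Without the ZT19 array the list median was 0.07, and without ZT23 it was 0.41. Cpr60D went the other way, with 5.39, 5.25, 5.81 and 6.25.

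Genes of the humoral immune response mostly had higher values on the day arrays. Of 33 members of the antimicrobial and recognition list 25 were measured and 22 passed the filter; 19 of the 22 had higher means in late day, and the groups did not overlap toward late day in 17, where 21.4% of all probe sets tested did so. The list median was 0.40, and it stayed between 0.30 and 0.43 with any 1 array left out. DptB, an antimicrobial peptide of the Imd pathway, read 12.86 and 12.92 in late day and 11.54 and 11.32 in late night, a difference of 1.46 (SE 0.13, 2.76-fold, adjusted p = 0.442 in limma). edin, an infection-induced secreted peptide, read 10.04, 10.65, 7.89 and 7.05, or 2.87 higher in late day (SE 0.38, adjusted p = 0.624). Both genes were set apart, with the 2 night arrays at the bottom. BomBc3, one of the Toll-induced bomanins, differed by 1.02 (SE 0.15) and PGRP-SB1, a peptidoglycan-cleaving recognition protein, by 0.81 (SE 0.13), each without overlap. The spread between arrays of one group was wide in others: AttD read 10.86 at ZT7 and 8.35 at ZT11, against 8.03 and 8.72 at night, and CecB read 8.33 and 6.64 against 5.97 and 6.00. The ZT7 array was the highest of the 4 for both, and for PGRP-SC2, a peptidoglycan amidase, at 11.22 against 8.64 to 9.68. Vago, which encodes a secreted antiviral factor and is on no list, went the other way, with 11.05 and 11.10 in late day and 12.11 and 12.08 in late night (difference -1.02, SE 0.11, adjusted p = 0.504 in limma).

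Activity-regulated transcription factors, which neurons switch on within minutes of firing, had higher values in late day. Hr38, an NR4A-type nuclear receptor gene, read 8.03 at ZT7, 8.19 at ZT11, 6.76 at ZT19 and 6.20 at ZT23. sr, the fly's EGR-type zinc finger gene, read 7.43, 7.33, 5.99 and 6.22. Both were set apart, Hr38 by a difference of 1.64 (SE 0.23, 3.11-fold, adjusted p = 0.624 in limma) and sr by 1.28 (SE 0.14, 2.43-fold, adjusted p = 0.504). A second Hr38 probe set of lower level differed by 0.80 (SE 0.37), also without overlap. The AP-1 subunit kay differed by 0.29 (SE 0.12), and its partner Jra by 0.10 (SE 0.13) with overlapping groups. All 4 members of the list were tested, and 2 were set apart, against 0.215% of all probe sets toward late day. This list, as the other gene lists here, was chosen with earlier results of these data known. Its counts are thus a description and not a test.

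Late-night transcripts were led by Achl and CG34134. Achl, a clock-controlled gene whose loss from neurons has been reported to raise immune transcripts in the fly, read 5.13 at ZT7 and 4.10 at ZT11 and 9.22 at ZT19 and 9.23 at ZT23. The night arrays were alike within 0.02, and the difference of -4.61 (SE 0.37) is 24.4-fold, with an adjusted p of 0.438 in limma; its day levels lie near background, so the fold is poorly measured. CG34134 read 8.58, 7.63, 10.97 and 12.87. It also had its lowest level at ZT11 and its highest at ZT23, and the arrays of a group were 0.95 and 1.90 apart, so its difference of -3.82 had an SE of 0.74 (adjusted p = 0.624).

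The other genes set apart toward late night had smaller or less even differences. CG43085 read 5.87, 5.71, 8.03 and 8.47 at ZT7, ZT11, ZT19 and ZT23 (difference -2.47, SE 0.20, adjusted p = 0.438 in limma), and CG15263 read 6.34, 5.91, 8.12 and 8.42 (-2.14, SE 0.21). Cyp6d2, a cytochrome P450 gene, read 7.93 and 8.16 in late day and 9.54 and 9.62 in late night (-1.53, SE 0.14, adjusted p = 0.442 in limma). In these 3 genes the arrays of a group lay within 0.44 of each other. pinta, which encodes a retinoid-binding protein of retinal pigment cells needed to make visual pigment, read 9.25, 9.24, 10.25 and 10.40 (-1.09, SE 0.12). One of 3 tested probe sets of M7BP, a myosin-binding protein gene, differed by -1.10 (SE 0.11), with the others at -0.17 and -0.45. AANATL3, an arylalkylamine N-acetyltransferase-like gene, read 3.33, 4.73, 6.75 and 6.64, and CG6839 read 5.07, 6.01, 7.29 and 7.17. Both day arrays of AANATL3 lay under 5, so it passed the filter through its night arrays alone. TpnC4, the troponin C of flight muscle, read 3.02 at ZT7, 7.04 at ZT11, 8.64 at ZT19 and 9.05 at ZT23. Its difference of -3.81 (SE 1.40) rested in part on the ZT7 array, and was -1.80 without it.

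Further genes of small p toward late night were not set apart by 2-fold. The groups did not overlap for Culd, a transmembrane protein gene (-1.09, SE 0.16), Ndae1, a sodium-driven anion exchanger gene (-0.74, SE 0.11), CG31036 (-1.32, SE 0.21), CG4377 (-0.76, SE 0.12), CG4363 (-0.91, SE 0.15) and Mocs1, a molybdenum cofactor synthesis gene (-0.71, SE 0.12). One probe set of mbl, the muscleblind splicing regulator gene, differed by -1.01 (SE 0.17), and its 5 other tested probe sets by -0.02 to -0.49. Toward late day the same rule named CG16772, which read 12.96, 13.02, 11.65 and 11.54 (1.39, SE 0.12, adjusted p = 0.438 in limma), CG17104 (0.96, SE 0.12), the Rab GTPase gene RabX5 (0.89, SE 0.12), CG14186 (0.97, SE 0.14) and CG4000 (0.94, SE 0.14). CG16772 was the one of these 5 that was set apart.

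Several genes set apart toward late day had their lowest level on the ZT19 array, or were set apart in 1 of several probe sets. IA-2, a dense core vesicle protein gene, read 9.32, 8.0, 4.07 and 5.78 in one tested probe set, and 14.81, 14.87, 14.45 and 14.61 in the other one tested, whose groups differed by 0.31 (SE 0.12). tutl, an immunoglobulin superfamily gene, read 5.83, 5.81, 2.31 and 4.65 in one probe set (2.34, SE 0.82), and its difference there was 1.17 without the ZT19 array and 3.51 without ZT23. Its 3 other tested probe sets differed by 0.31, 0.68 and 1.41. Sarm, a gene of axon degeneration, differed by 1.75 (SE 0.35) in one probe set and by -0.68 to 0.67 in its 6 other tested ones, which lay on both sides of 0. CG9377 read 9.61, 8.97, 7.08 and 7.83, CG8736 read 6.96, 7.90, 4.68 and 5.24, and CG31462 read 5.69, 5.78, 3.60 and 4.41. ZT19 was the lowest array in each of these 3. For CG31462, and for the tutl probe set whose levels are given, both night arrays lay under 5. Each thus passed the filter through its day arrays alone.

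The 12 h pairs of arrays, ZT7 with ZT19 and ZT11 with ZT23, share no array, and a transcript with a daily peak late in the day or night would differ the same way in both. Over the 11651 probe sets the difference had the same sign in both pairs in 50.4%, and the pair differences correlated at r = 0.067 across probe sets, which share the arrays' normalization and are not independent replicates. ZT7 and ZT19 differed by 2-fold or more in 7.41% of probe sets and ZT11 and ZT23 in 1.53%. Within groups, ZT11 and ZT7 differed so in 1.88% and ZT23 and ZT19 in 4.33%. The pairs that include the ZT19 array had the larger shares. The set-apart genes have the same sign in both pairs by the way they were chosen; CG7214 differed by 4.48 and 3.88, Fad2 by 5.43 and 4.74, Achl by -4.08 and -5.13, and CG34134 by -2.39 and -5.24.

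**Figure D3:**
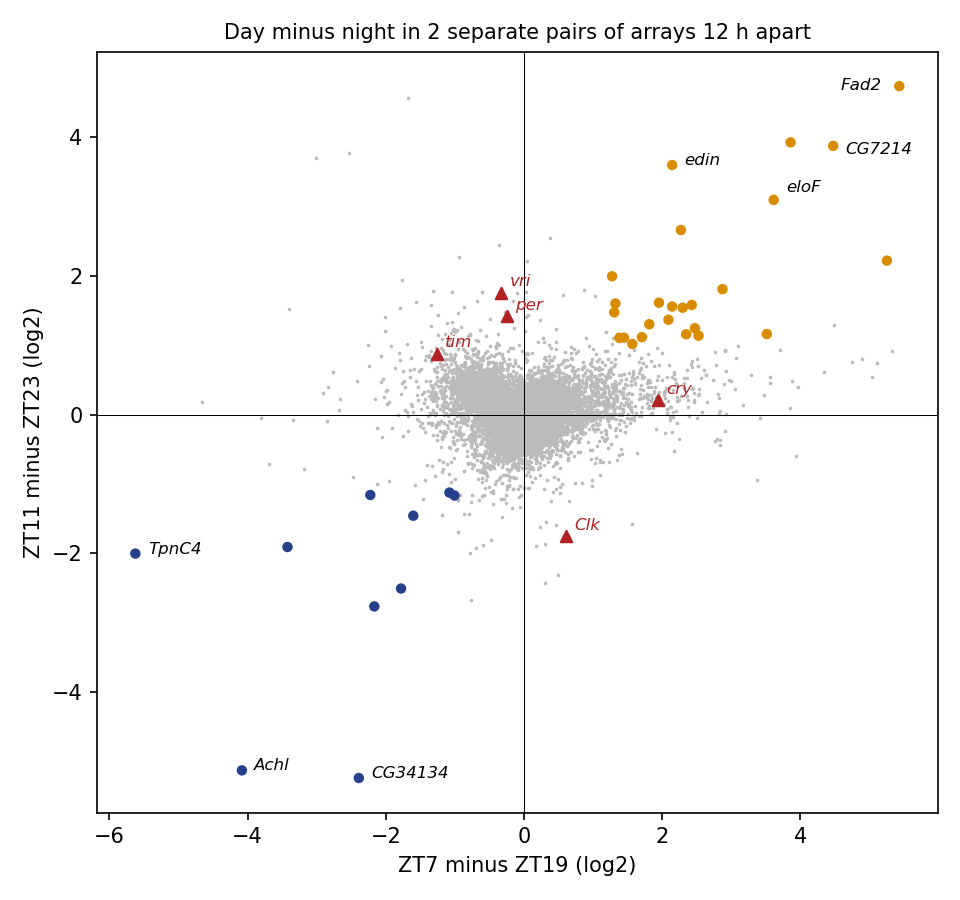
Each point is a probe set, placed by its difference between ZT7 and ZT19 (x axis) and between ZT11 and ZT23 (y axis), both in log2 units. Grey points are all 11651 probe sets tested, orange and blue points those set apart toward late day and late night, and red triangles the core clock genes Clk, per, tim, vri and cry. The clock genes lie off the diagonal, with Clk at 0.61 and -1.75 and vri at -0.33 and 1.76.

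Among the core clock genes, Clk, per and vri differed more within the day or the night than between them. Clk, which encodes the activator of the loop, read 8.75 at ZT7, 7.71 at ZT11, 8.14 at ZT19 and 9.46 at ZT23. It was thus lower at the later day time and higher at the later night time, by 1.04 and 1.32, and its day and night arrays overlapped (difference -0.57, SE 0.59, adjusted p = 0.814 in limma). per, the repressor, read 8.80, 9.30, 9.05 and 7.88, and vri, which represses Clk, read 11.32, 11.91, 11.65 and 10.15. Both had their lowest level at ZT23 and their highest at ZT11, opposite to Clk. The differences of per (0.58, SE 0.45) and vri (0.71, SE 0.57) were near their errors, and without the ZT23 array they were -0.004 and -0.03.

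The probe sets of tim, the partner of per, went different ways. The brighter one read 11.82, 12.93, 13.08 and 12.05, highest at ZT19, while the dimmer read 9.36, 10.67, 8.16 and 9.48, lowest at ZT19. Their day and night differences were -0.19 (SE 0.53) and 1.19 (SE 0.65). cry, the blue-light receptor of the clock, read 10.57, 9.96, 8.63 and 9.75, and was the core clock gene with the largest gap, in which both day arrays lay above both night arrays by 0.21 at the nearest (difference 1.07, SE 0.46, adjusted p = 0.625 in limma). Without the ZT19 array the difference of cry was 0.51. Pdp1, an activator of Clk, read 11.84, 12.01, 12.14 and 11.53, and cwo, a repressor that competes with CLK and CYC, read 10.62, 11.65, 11.47 and 11.42 in its brighter probe set. The differences of Pdp1 (0.09, SE 0.24) and cwo (-0.31, SE 0.37) did not exceed their errors. cyc, the partner of Clk, stayed between 9.35 and 9.60. None of the 8 genes was set apart, where 0.215% of all probe sets were so toward late day and 0.0858% toward late night. An unadjusted p under 0.05 was reached by 0 of the 8 and by 7.84% of all probe sets, so these counts set the list apart from other probe sets in neither respect.

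**Figure D4:**
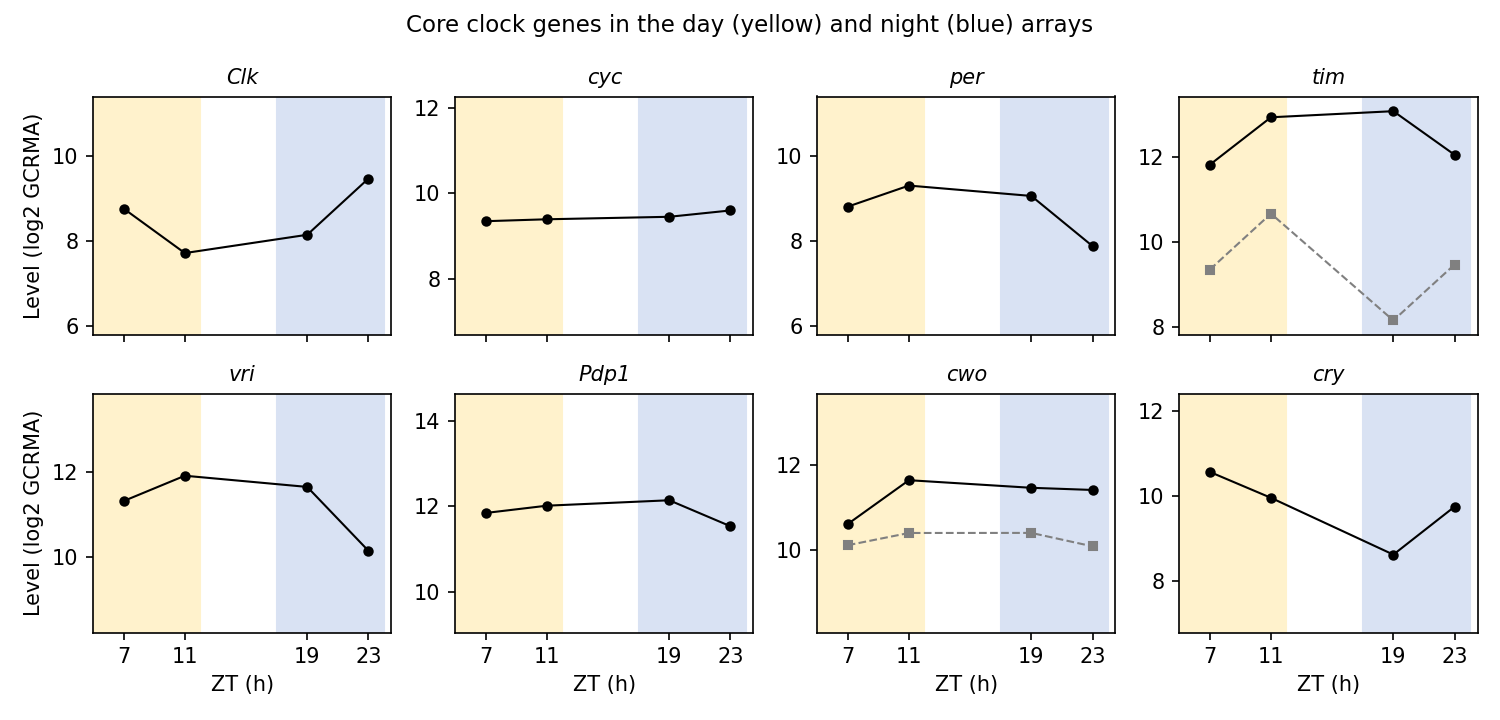
Levels of the 8 core clock genes on the log2 GCRMA scale against ZT in hours, with 1 array per time. Yellow and blue bands mark the day and night groups, black lines the probe set of highest mean and grey dashed lines a second probe set; all panels span the same range. Clk was lowest at ZT11 and highest at ZT23, and per and vri were highest at ZT11 and lowest at ZT23.

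Genes that act on clock proteins had small differences toward late day in several cases. Of 19 on the list 13 were measured and tested, 3 with an unadjusted p under 0.05 toward late day (background 4.39%) and 0 toward late night (3.46%). The median was 0.12, and it was 0.19 without the ZT19 array and 0.065 without ZT23. Usp8, a deubiquitinase gene, read 10.53, 10.50, 9.66 and 8.70 (1.33, SE 0.35, adjusted p = 0.624 in limma), with the lowest level at ZT23, and differed by 0.85 without that array. Atx2, which acts in translation of per, differed by 0.40 (SE 0.14), and dco, the kinase that phosphorylates the per protein, by 0.38 (SE 0.14). Of 18 known head cyclers tested, 5 had higher values in late day at an unadjusted p under 0.05 (background 4.39%) and 2, Achl and CG34134, in late night (3.46%). The 5 were Hr38, Usp8, trpl, sxe2 (0.62, SE 0.19) and speck, the arylalkylamine N-acetyltransferase gene (0.52, SE 0.13). Slob, a further member, was represented by its brighter probe set (0.44, SE 0.23), while its other tested one differed by 0.95 (SE 0.14). The list median was 0.14, and 0.04 without the ZT19 array.

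Neuronal transcripts tended to higher values in late day, and the median level of the neuronal and synaptic genes was lowest at ZT19. Of 28 neuronal and synaptic genes 24 were measured and tested, and 21 had higher means in late day, 15 without overlap, against 21.4% of all probe sets. Of the 24, shi alone had an unadjusted p under 0.05, toward late day (0.55, SE 0.16), where 4.39% of all probe sets did so. It encodes the dynamin of synaptic vesicle recycling, and its 2 other tested probe sets differed by -0.02 and 0.18. The list median was 0.31, and 0.19 without the ZT19 array. Not all members were low at ZT19, as Shaw, qvr, unc-13 and Syn had their highest level there. Rdl, a GABA receptor gene, read 10.57, 10.58, 9.29 and 10.18, and its difference of 0.84 became 0.40 without ZT19. Among genes of neurotransmitters, Vmat, the vesicular monoamine transporter, read 10.77, 10.54, 9.32 and 9.96 (1.02, SE 0.26), and VGlut, the vesicular glutamate transporter, 9.12, 9.20, 7.99 and 8.54 (0.89, SE 0.22). Both had the day arrays above the night arrays and the lowest level at ZT19, though the 2 other tested Vmat probe sets differed by 0.86 and -0.06. The gene t (tan), whose enzyme frees histamine and dopamine from their beta-alanyl conjugates, went the other way, with 12.23 and 11.83 in late day and 12.87 and 13.06 in late night (-0.94, SE 0.19, adjusted p = 0.624 in limma). Of 17 such genes 14 had higher means in late day, with a median of 0.24 and of 0.13 without the ZT7 array.

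Genes of the eye and of glia showed small differences. Of 18 phototransduction genes, 3 had an unadjusted p under 0.05 toward late day, against 4.39% of all probe sets: trpl, a light-gated channel gene (0.53, SE 0.15), rdgA, the diacylglycerol kinase gene (0.86, SE 0.25, and 0.54 without the ZT19 array), and Rh7, a rhodopsin gene (0.35, SE 0.11). The list median was 0.17, and 0.10 without ZT19. Of 7 tested genes of rhodopsin maturation and chromophore, CG10513 alone had an unadjusted p under 0.05, toward late night (-0.49, SE 0.11), against 3.46% of all probe sets. The median of that list was 0.01, and 0.11 without the ZT19 array. The 12 glial genes had a median of 0.16, and of 0.07 without ZT7; Gat, the GABA transporter gene, differed by 0.40 (SE 0.14) and ltl by 0.37 (SE 0.13). Neuropeptides of clock neurons and their receptors had a median of -0.03 over 18 genes, and 0 had an unadjusted p under 0.05, where 7.84% of all probe sets did.

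Mitochondrial ribosomal protein genes were slightly but evenly lower in late day. Of 69 measured and tested, 66 had lower means in late day and 51 did so without overlap, where 20.7% of all probe sets did. The differences ran from -0.50 to 0.04, with a median of -0.20, of -0.14 in the ZT7 and ZT19 pair and of -0.27 in the ZT11 and ZT23 pair. mRpL32 read 8.32, 8.36, 8.72 and 8.86 (-0.45, SE 0.12), and mRpL41 read 9.35, 9.40, 9.77 and 9.81 (-0.42, SE 0.11, adjusted p = 0.624 in limma). Of the members, 7 had an unadjusted p under 0.05, all toward late night, against a background of 3.46%. The proteasome list leaned the same way, as 32 of 38 tested subunits and paralogs had lower means in late day, 19 without overlap, with a median of -0.18, or -0.11 without the ZT7 array. Prosalpha6 differed by -0.36 (SE 0.12). Cytosolic ribosomal protein genes had a median of 0.04 over 41 genes, and of -0.04 without the ZT19 array. In 5 of them the groups did not overlap, 3 toward late day and 2 toward late night. Of all probe sets, 21.4% and 20.7% did so in these directions. An unadjusted p under 0.05 was reached by 0 of the 41 and by 7.84% of all probe sets.

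Among detoxification genes, the cytochrome P450 list had more members with higher means in late night. Of 81 cytochrome P450 genes measured, 66 passed the filter, and 48 of these had higher means in late night; 9 had an unadjusted p under 0.05 toward late night (background 3.46%) and 1 toward late day (4.39%). The median was -0.15. Beside Cyp6d2, Cyp309a2 (-0.71, SE 0.13) and Cyp4ac1 (-0.62, SE 0.13) were higher in late night without overlap, while Cyp313a1 read 13.83, 13.82, 13.35 and 13.34 and was higher in late day (0.48, SE 0.11). UDP-glycosyltransferases had a median of -0.28 over 18 tested of 35 measured, and of -0.17 without either ZT11 or ZT19; Ugt36A1 differed by -0.64 (SE 0.11). Glutathione S-transferases had a median of 0.01 over 29, with 15 higher in late day and 14 in late night, and a median of -0.175 without the ZT19 array; GstZ1 differed by -0.79 (SE 0.21). Among odorant-binding proteins, 5 of 29 tested had an unadjusted p under 0.05, all toward late night, where 3.46% of all probe sets did so. They were Obp69a (-0.96, SE 0.19), lush, which encodes a binding protein for a male pheromone (-0.74, SE 0.18), Obp99a (-0.57, SE 0.16), Obp19c (-0.36, SE 0.11) and Obp83cd (-1.14, SE 0.35). For lush both day arrays lay under 5, at 4.365 and 4.758, so it passed the filter through its night arrays alone. The list median was 0.09, of the other sign, and -0.04 without the ZT19 array.

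Chaperones, muscle and sugar metabolism had higher median values in late day. Hsc70-3, the ER chaperone BiP, read 13.02, 13.18, 12.53 and 12.46 (0.60, SE 0.12, adjusted p = 0.624 in limma), and Gp93, the ER chaperone of the HSP90 family, read 10.99, 11.36, 10.31 and 10.47 (0.79, SE 0.18). Hsp68, a heat shock gene, differed by 1.02 (SE 0.33), and by 0.61 without the ZT7 array. These 3 of 13 tested chaperone genes had an unadjusted p under 0.05 toward late day (background 4.39%), and the list median was 0.25. Of 20 muscle genes 16 had higher means in late day, with a median of 0.32 and of 0.17 without the ZT11 array. The flight muscle genes went other ways: TpnC4 was set apart toward late night, while the actin gene Act88F read 6.68, 12.82, 8.36 and 8.26 and fln, the flightin gene, read 4.61, 11.40, 7.63 and 7.70. Act88F and fln, named after their values were seen, thus had both their lowest and their highest level on the day arrays. Prm, the paramyosin gene, differed by 0.50 (SE 0.11), and Act79B, a muscle actin gene, read 10.66, 11.63, 10.09 and 9.90, highest at ZT11. Of 19 genes of glycolysis and carbohydrate metabolism 15 had higher means in late day, 13 without overlap (21.4% of all probe sets), with a median of 0.23; Glyp, the glycogen phosphorylase gene, differed by 0.38 (SE 0.13), and Hex-C, a hexokinase gene, by -0.34 (SE 0.11). Sod3, the extracellular superoxide dismutase gene, read 11.67, 11.40, 10.55 and 10.65 (0.94, SE 0.15), and was the redox gene with the smallest p of 15 tested, whose median was 0.16, and -0.02 without the ZT19 array.

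Genes of fat storage and insulin included several with higher values at night. mdy (-0.62, SE 0.17) and Dgat2 (-1.24, SE 0.47), both acyltransferases of the last step of triglyceride synthesis, and mino, an acyltransferase of the first step (-0.36, SE 0.12), were higher in late night without overlap. For Dgat2 the levels were 6.37, 5.05, 6.96 and 6.93, and the difference was -0.58 without the ZT11 array and -1.90 without ZT7. The whole list of 21 lipid genes had a median of 0.02, with 2 toward late night (background 3.46%) and 0 toward late day (4.39%) at an unadjusted p under 0.05. Lsp2, a storage protein gene, read 12.58, 11.07, 13.34 and 13.74 (-1.72, SE 0.55), lowest at ZT11, and differed by -0.96 without that array. Ilp5, an insulin-like peptide gene of the brain, read 9.88, 9.33, 10.14 and 10.50 (-0.71, SE 0.25, and -0.44 without the ZT11 array). The list medians were 0.06 over 9 fat body genes (-0.02 without the ZT19 array), 0.01 over 11 genes of feeding and insulin response, -0.04 over 6 genes of juvenile hormone and -0.08 over 11 hemocyte genes. The medians of the lipid, feeding and juvenile hormone lists, of the neuropeptides and of the core clock also took the other sign with 1 of the 4 arrays left out. The digestive enzymes, as the sperm and seminal fluid genes above, turned between the pairs, with -0.79 at ZT7 against ZT19 and 0.35 at ZT11 against ZT23. Their median of -0.31 became 0.34 without the ZT7 array.

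**Figure D5:**
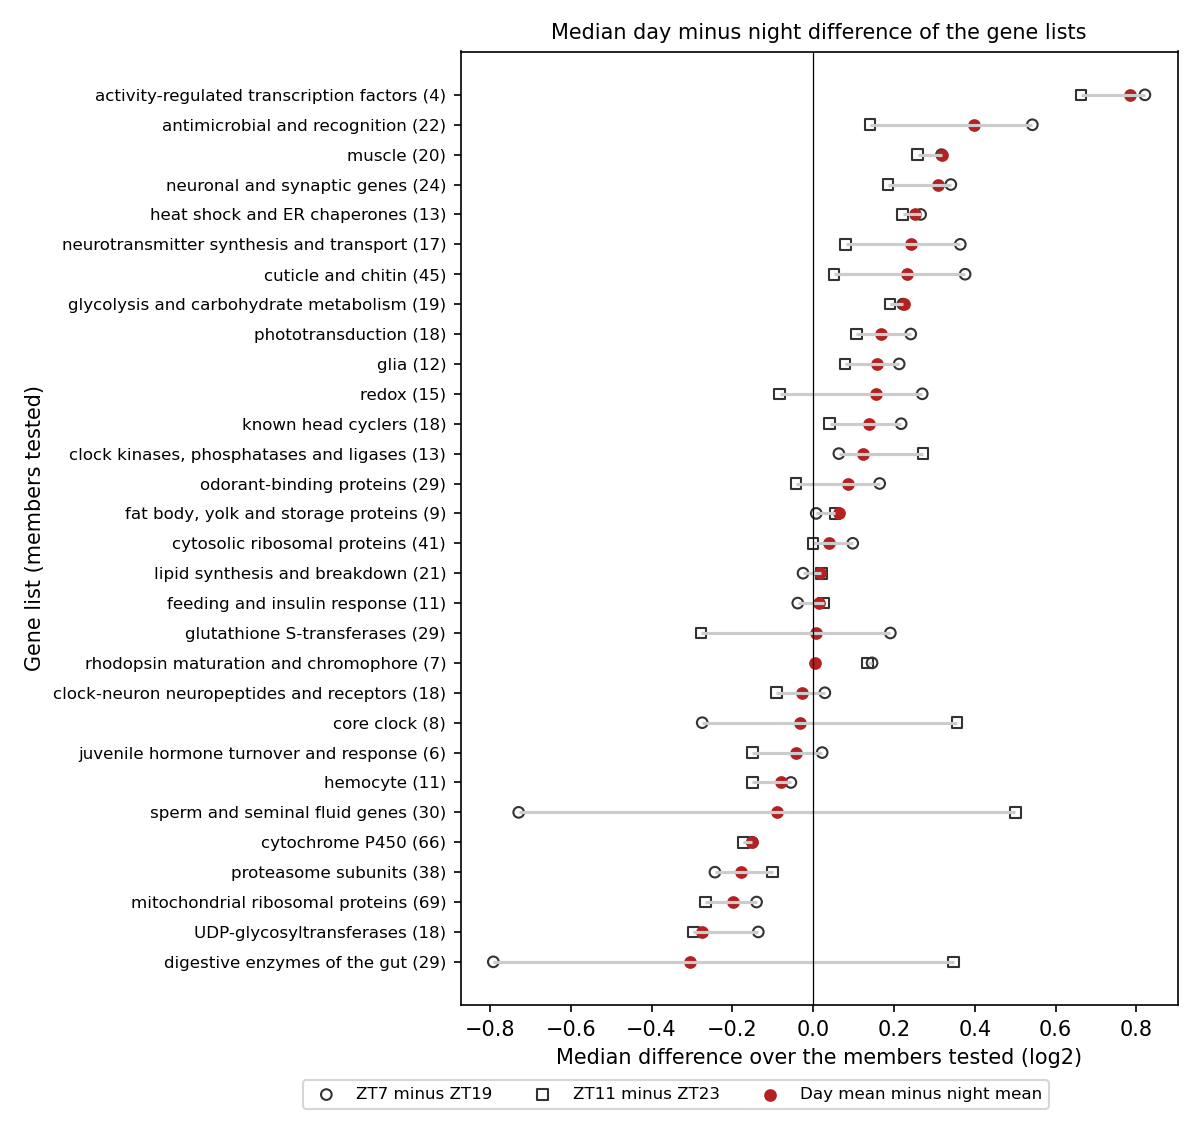
Median difference between late day and late night (x axis, log2 units, positive toward late day) over the tested members of each gene list with at least 4 of them. Filled red points are day mean minus night mean, open circles the ZT7 and ZT19 pair and open squares the ZT11 and ZT23 pair. Activity-regulated transcription factors (0.78) and the antimicrobial list (0.40) lie highest. The digestive enzymes, the sperm and seminal fluid genes and the core clock genes have pairs on both sides of 0. So do the glutathione S-transferase, redox, odorant-binding protein, juvenile hormone, neuropeptide, lipid, feeding and cytosolic ribosomal protein lists.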

How the data were processed

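The authors used GCRMA, per the submitters' processing notes, in a version not given in the sources used here. Each row of the deposited intensity table has 1 value per array for a probe set, and its natural log was taken as the log2 GCRMA level, since hybridization controls rose with log2 concentration with slopes of 1.06 to 1.07 with the natural log and 1.53 to 1.54 with log2. If log2 were the right scale, folds would be larger, by a power of 1.44. Of 18952 probe sets, 183 controls were left out, and 13647 of 18769 named 1 gene, 13544 through a current RefSeq identifier. Probe sets were tested if at least 2 of the 4 arrays reached 5, with limma 3.58.1 in R 4.3.3 (lmFit, eBayes, 2 group means, residual df of 2), two-sided, with Benjamini-Hochberg adjustment over all probe sets tested. The code was tested on simulated data. A gene in a list is represented by its probe set of highest mean. Named were all core clock genes, the 14 genes of smallest p in each direction without overlap, and up to 4 of smallest p per list, a rule that applied because fewer than 20 genes passed. The members and the 31 lists were chosen with earlier results of these data known. Nothing says whether the arrays came from separate flies or cultures, so p-values measure the spread between these arrays. The number of arrays limits the precision. Alternatives changed the filter, normalization, scale, variance model, block, probe set summary and arrays used. The other 5 arrays were left out.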

Additional observations from a re-analysis of the deposited data

How the results depend on the processing

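The count of 0 probe sets at an adjusted p under 0.05 in limma was 0 under the other 8 settings (no filter, a mean of at least 7, median centring, quantile normalization, log2 of the deposited values, robust eBayes with trend, the 12 h pair as a block, and means over the probe sets of a gene), with smallest adjusted p from 0.0697 to 0.642, and 0 to 10 with 1 array left out. The count of 35 set-apart probe sets was 20 with a mean of at least 7, where fewer probe sets were tested, 98 with log2 of the deposited values, which multiplies each difference by 1.44, and 65 to 411 with 1 array left out. No core clock gene and no list member passed in any setting. The 28 genes of smallest p kept their direction in all settings. They were chosen for groups that did not overlap, so leaving out 1 array could not turn their sign. Elsewhere the dimmer cwo probe set turned to -0.0274 with quantile normalization, for which the cause was not tested. With means over the probe sets of a gene, tim turned to 0.502, since its probe sets differ by -0.189 and 1.194, and gce to 0.445, since its probe sets differ by -0.302 and 1.192. With 1 array left out, differences ranged from -1.23 to 0.0926 for Clk, -0.213 to 0.397 for Pdp1, -0.826 to 0.204 for the brighter cwo probe set, -0.145 to 0.17 for the dimmer cwo probe set, -0.00396 to 1.17 for per, -0.746 to 0.368 for the brighter tim probe set, -0.0344 to 1.46 for vri, -0.00596 to 0.206 for Jra, -0.783 to 0.00265 for Acp26Ab, -0.139 to 0.418 for orb and -0.0085 to 0.472 for RpL23. The tutl probe set passed without the ZT23 array. By replicate number, no paired analysis was possible because the labels number replicates at ZT3 and ZT15 alone, which were left out; the 12 h block pairs arrays by time.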
